A study of Mus musculus with 8 samples.

Results

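The genes described here are 7 markers of the oligodendrocyte lineage: Olig1, Olig2, Nkx2-2, Sox10, Pdgfra, Cspg4 and Cnp. They were chosen by name, through the 14 probe sets annotated with exactly 1 of these symbols, out of 18193 genes and 45101 probe sets in all. RNA came from NS5 cells, a line of mouse neural stem cells labelled as brain of embryonic day 11.5, hybridized to 8 Affymetrix mouse arrays. The cells had first been plated for 24 h with EGF and FGF2 and then kept for 4 h without growth factors. The 4 groups of 2 arrays were then treated for 48 h: ethanol at 400 mg/dl with TGF-beta1 (Ethanol and TGF-beta1), TGF-beta1 alone (TGF-beta1), ethanol with FGF2 (Ethanol and FGF2), and FGF2 alone (FGF2). The labels give 10 ng/ul for each growth factor, a unit that the values cannot check. All arrays stand for 1 cell line, and no label tells if replicates came from separate cultures, so p values measure the spread between these samples, which may be technical.

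Oligodendrocytes make the myelin of the central nervous system and arise from progenitors that divide and migrate in response to PDGF. Olig1 and Olig2 are basic helix-loop-helix transcription factors, and Olig2 specifies the lineage but is also made by dividing neural stem cells in culture. Sox10 and Nkx2-2 are transcription factors that join Olig2 as progenitors commit and begin to differentiate. Pdgfra is the receptor through which PDGF-AA keeps progenitors dividing, and Cspg4 encodes the proteoglycan NG2 on their surface, although fibroblasts carry Pdgfra and pericytes carry NG2 as well. Cnp encodes an enzyme of the myelin sheath that appears before compact myelin is made.

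All values below are signals of the deposited table, linear intensities scaled so that the 2% trimmed mean was 500 on each array. The number of arrays limits their precision. The median signal of an array ran from 50.62 to 86.49. Of 8 neural stem and radial glia markers, 6 lay above background on all 8 arrays. Among them were Sox2 (6018 to 12161), Fabp7 (14386 to 36790), Vim (18178 to 37741) and Nes (367 to 1254). Hes5 (77.34 to 641.6) lay at or below background on 1 array, and Prom1 (6.151 to 55.48) on all 8. All 5 endothelial markers lay at or below background on all 8, as did 3 of 6 microglial markers, and the other 3 did so on some. The fibronectin gene Fn1, which separated the growth factors in the groups without ethanol, had signals of 3015 and 4109 in TGF-beta1 and 119.7 and 138.9 in FGF2. In the ethanol groups it went against the label on both arrays labelled replicate 1. The Fn1 signal was 124.2 (replicate 1) and 8226 (replicate 2) in Ethanol and TGF-beta1, and 6828 (replicate 1) and 116.2 (replicate 2) in Ethanol and FGF2. The astrocyte gene Gfap followed the same split, with 2102 and 2461 in TGF-beta1 and 533.6 and 61.89 in FGF2, but 667.6 and 8284 in Ethanol and TGF-beta1 and 6058 and 1281 in Ethanol and FGF2. Each array was kept in the group of its label, and results that rest on these 2 doubted arrays are also given without them.

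The table has no detection calls, so background was taken from 126 probe sets of odorant, vomeronasal and taste receptor and hair keratin-associated genes, which neural stem cells are not known to use. A signal was called near background where it was at or below the 95th percentile of these probe sets on the same array. That bound was 91.96 and 162.3 in Ethanol and TGF-beta1, 48.06 and 95.25 in TGF-beta1, 88.1 and 79.88 in Ethanol and FGF2, and 45.12 and 161.2 in FGF2 (replicates 1 and 2). By this measure 6 of the 14 probe sets, from 4 genes, stood above background on all 8 arrays: those of Olig1 and Olig2, 1 of 3 for Pdgfra and 3 of 3 for Cnp. The 2 probe sets of Cspg4 and the single one of Nkx2-2 were near background on all 8 arrays, as were 2 of 3 for Sox10. The same 4 genes, Olig1, Olig2, Pdgfra and Cnp, passed the signal filter of the test (mean log2 value of at least 6.402), and Cspg4, Sox10 and Nkx2-2 did not.

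**Figure D1:**
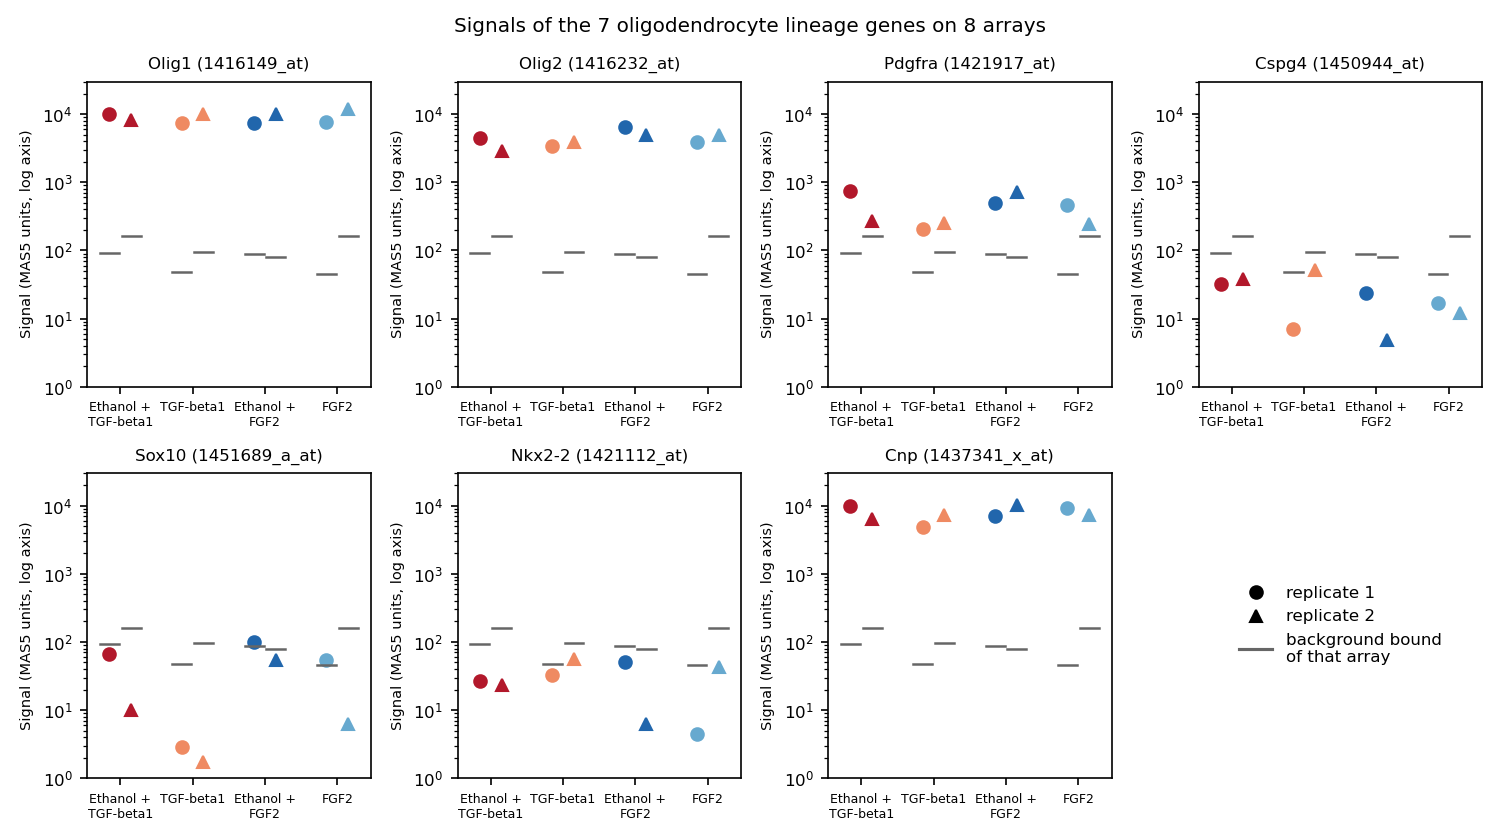
Signals (log axis) of the best measured probe set of each of the 7 genes, with 1 point per array (circle, replicate 1; triangle, replicate 2) in 4 groups, and the background bound of each array as a grey line. Olig1, Olig2 and Cnp lie far above the bound on all 8 arrays, Pdgfra lies above it (1.52 to 10.1 times), and Cspg4 and Nkx2-2 lie under it on all 8.

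Olig1 was the factor with the highest clearance over background, its signal being 50.1 to 170 times the bound of the same array. It lies on chromosome 16 from 91269769 to 91271939 (GRCm38.p6). The Olig1 signal was 10133 and 8139 in Ethanol and TGF-beta1, 7388 and 9994 in TGF-beta1, 7490 and 10172 in Ethanol and FGF2, and 7655 and 11802 in FGF2. All 4 groups overlapped. The group means ran from 8691 ± 1842 in TGF-beta1 to 9728 ± 2933 in FGF2 (SD, n = 2 each), so the gap between the replicates of FGF2 was wider than the gap between any 2 group means.

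Olig2 lies on the same chromosome from 91225550 to 91228677, 41.1 kb from Olig1 with 0 annotated protein-coding genes between them. The Olig2 signal was 4465 and 2830 in Ethanol and TGF-beta1, 3402 and 3898 in TGF-beta1, 6554 and 4918 in Ethanol and FGF2, and 3877 and 4870 in FGF2. Ethanol and FGF2 replicate 1 had its highest value and Ethanol and TGF-beta1 replicate 2 its lowest, and these were the 2 arrays with the highest Fn1 signals. Although the genes are neighbours, their profiles over the 8 arrays had a Pearson r of 0.223 (log2 scale, given as a description).

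The other lineage factors were at or close to background. Nkx2-2 (chromosome 2, 147176485 to 147195434) had a signal of 26.29 and 23.24 in Ethanol and TGF-beta1, 32.89 and 56.5 in TGF-beta1, 50.97 and 6.34 in Ethanol and FGF2, and 4.398 and 43.24 in FGF2. The replicates of FGF2 differed more than the groups did, and all 8 values were under the bound. Sox10 (chromosome 15, 79154913 to 79164490) was read by 3 probe sets, whose signals ran from 3.352 to 56.3 (1424985_a_at), from 2.935 to 44.99 (1425369_a_at) and from 1.74 to 100.9 (1451689_a_at). The third passed the bound on 2 arrays, with 100.9 on Ethanol and FGF2 replicate 1 and 53.79 on FGF2 replicate 1, by at most 1.19 times. The 6 other arrays had 67.17 and 9.938 in Ethanol and TGF-beta1, 2.907 and 1.74 in TGF-beta1, 54.33 in Ethanol and FGF2 and 6.215 in FGF2. The other probe sets of Sox10 were under the bound on those 2 arrays as well. Fitted without the signal filter, ethanol averaged gave Sox10 a log2 fold change of 1.06 ± 0.43 (adjusted p = 0.527 by limma), Nkx2-2 −0.17 ± 0.41 (0.954) and Cspg4 0.12 ± 0.36 (0.967).

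Pdgfra (chromosome 5, 75151322 to 75198206), the PDGF receptor of progenitors, was measured by 1 of its 3 probe sets, 1421917_at. Its signal was 741.4 and 270.7 in Ethanol and TGF-beta1, 205.2 and 255.3 in TGF-beta1, 503.4 and 713.9 in Ethanol and FGF2, and 456.0 and 244.9 in FGF2. The values with ethanol lay above those without ethanol within each growth factor, but the lowest ethanol value was under the highest value of FGF2. The margin over background was thin on 2 arrays: 270.7 against a bound of 162.3 on Ethanol and TGF-beta1 replicate 2, and 244.9 against 161.2 on FGF2 replicate 2. The other probe sets, 1421916_at (3.601 to 32.68) and 1438946_at (14.9 to 79.93), were under the bound on all 8 arrays. The probe sets of Pdgfra therefore disagreed on whether the gene was detected at all.

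Cspg4 (chromosome 9, 56865104 to 56899870), the NG2 gene, was near background by both probe sets. The signal of 1450944_at was 31.87 and 37.74 in Ethanol and TGF-beta1, 6.929 and 51.52 in TGF-beta1, 23.59 and 4.854 in Ethanol and FGF2, and 16.88 and 12.01 in FGF2. That of 1423341_at was 5.276 and 6.884 in Ethanol and TGF-beta1, 18.39 and 12.34 in TGF-beta1, 15.44 and 10.22 in Ethanol and FGF2, and 37.64 and 37.22 in FGF2. The second probe set had lower values with ethanol within each growth factor and the first did not, and values under the bound have no dependable order.

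Cnp (chromosome 11, 100574909 to 100591875) was above background on all 8 arrays by each of 3 probe sets, the dimmest (1449296_a_at) by as little as 1.93 times. The signal of 1437341_x_at was 9800 and 6241 in Ethanol and TGF-beta1, 4854 and 7241 in TGF-beta1, 6929 and 10047 in Ethanol and FGF2, and 9296 and 7353 in FGF2. Without ethanol, both TGF-beta1 values lay below both FGF2 values, by a narrow gap. The profile of 1418980_a_at (3265 to 6874) followed it with a Pearson r of 0.993 over the 8 arrays, and that of 1449296_a_at (239.1 to 483.3) with an r of 0.87. In the first 2 of these probe sets the values of Ethanol and TGF-beta1 replicate 1 (9800 and 6627) stood beside those on Ethanol and FGF2 replicate 2 (10047 and 6874), and both arrays had a low Fn1 signal.

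**Figure D2:**
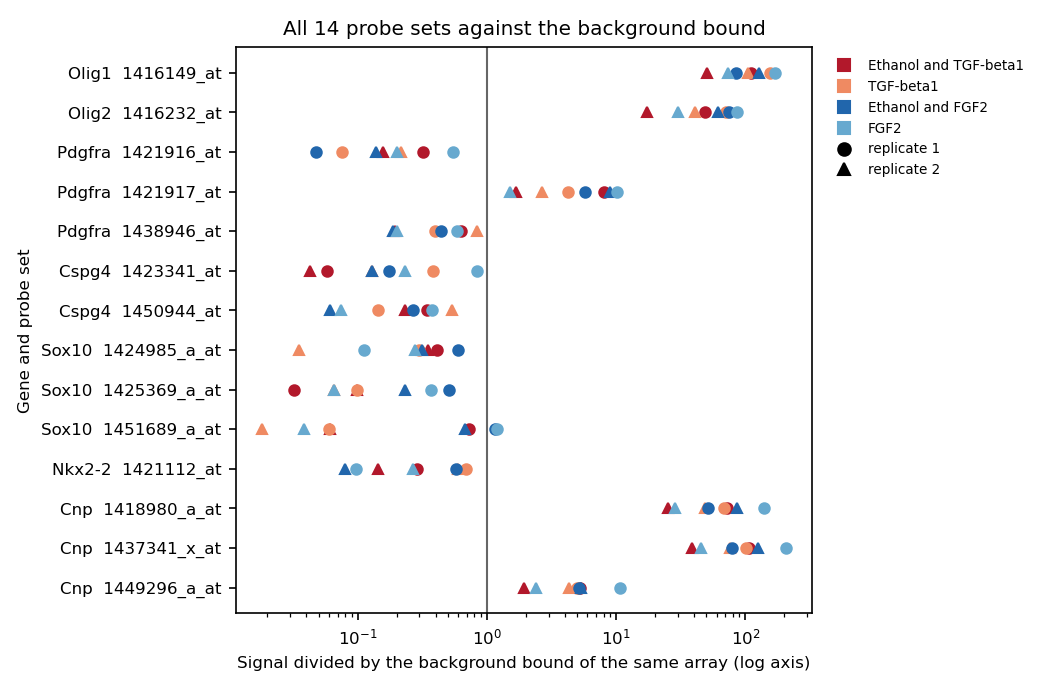
Signal divided by the background bound of the same array (log axis) for all 14 probe sets, with 1 point per array; the vertical line marks a ratio of 1. The 6 probe sets of Olig1, Olig2, Cnp and one of Pdgfra lie right of the line on all 8 arrays, from 1.52 upward, and 7 others lie left of it throughout; 1451689_a_at of Sox10 crosses it on 2 arrays.

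The first comparison asked how ethanol altered these transcripts, averaged over both growth factors, and found no change past the threshold in the genes that could be measured. By limma, 0 of the 4 lineage genes tested passed an adjusted p of 0.05, where 1.99% of the 10916 genes tested did. Pdgfra came nearest, with a log2 fold change of 0.85 ± 0.34 (SE), an unadjusted p of 0.0316 and an adjusted p of 0.388. Its 95% interval ran from 1.07-fold to 3.06-fold higher. Leaving out Ethanol and TGF-beta1 replicate 1, the Pdgfra value was 0.51 ± 0.30, and leaving out replicate 2 of that group it was 1.2 ± 0.29 (adjusted p = 0.71 and 0.14). Averaged with its 2 undetected probe sets it was 0.24 ± 0.26. Without both doubted arrays it was 0.63 ± 0.32 (adjusted p = 0.565).

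The other measured genes stayed closer to 0 in this average. Olig1 had a log2 fold change of −0.02 ± 0.21 (adjusted p = 0.986 by limma), and its 95% interval, as a ratio of ethanol to no ethanol, ran from 0.708 to 1.37. Olig2 had 0.17 ± 0.20 (adjusted p = 0.837), with a ratio between 0.826 and 1.54, and the value was −0.09 ± 0.19 without both doubted arrays. Cnp had 0.21 ± 0.23 (adjusted p = 0.832), with a ratio between 0.807 and 1.65, and 0.18 ± 0.24 without those arrays. The intervals of these 3 genes therefore left out a 2-fold change in either direction, whereas that of Pdgfra did not. Over the 4 genes tested the median log2 fold change was 0.19, against 0.03 over all genes tested. The ethanol and no-ethanol arrays overlapped for 4 of 4 lineage genes, where 7.43% of all genes tested had groups that did not overlap.

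Within FGF2 and within TGF-beta1, ethanol likewise gave no call among the lineage genes. By limma, 0 of 4 passed within FGF2, where 0% of all genes did (906 had an unadjusted p under 0.05), and 0 of 4 within TGF-beta1, where 1.19% did. Within FGF2, Olig2 had a log2 fold change of 0.38 ± 0.28 and Pdgfra 0.80 ± 0.47, at adjusted p of 0.757 and 0.693. The highest Olig2 signal was on a doubted array, and without both such arrays the Olig2 value was 0.18 ± 0.26. Olig1 had −0.12 ± 0.30 and Cnp 0.01 ± 0.32, and without both arrays 0.10 ± 0.37 and 0.28 ± 0.34. The values of Olig2 and Pdgfra in Ethanol and FGF2 lay above those in FGF2. For Olig2 the gap was narrow (4918 against 4870), and for Pdgfra it was 503.4 against 456. These were 2 of 4 genes without overlap, where 32% of all genes had none. RNA integrity, read as the signal of the Gapdh control probe set at the transcript's 3′ end over that at its 5′ end, moved with these groups. That ratio was 3.328 and 3.482 in Ethanol and FGF2, and 1.635 and 2.199 in FGF2; its part in the values was not tested.

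Within TGF-beta1, Pdgfra had a log2 fold change of 0.91 ± 0.47 (adjusted p = 0.588 by limma), Cnp 0.40 ± 0.32, Olig1 0.08 ± 0.30 and Olig2 −0.03 ± 0.28. Pdgfra was the 1 gene of 4 whose groups did not overlap, where 47.9% of all genes had none. Its difference rested on the doubted array: without Ethanol and TGF-beta1 replicate 1 it was 0.22 ± 0.47, and without replicate 2 of that group 1.60 ± 0.46 (adjusted p = 1 and 0.306). Without both doubted arrays the ethanol difference of Pdgfra was 0.22 ± 0.45 within TGF-beta1 and 1.04 ± 0.45 within FGF2. The other differences within TGF-beta1 were then 0.07 ± 0.34 for Cnp, −0.08 ± 0.37 for Olig1 and −0.36 ± 0.26 for Olig2.

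Whether ethanol acted differently in the 2 growth factors was tested as an interaction. By limma it was passed by 0 of 4 lineage genes and 0% of all genes tested (484 had an unadjusted p under 0.05). The interaction, the ethanol difference in TGF-beta1 minus that in FGF2, was 0.20 ± 0.42 for Olig1, −0.42 ± 0.40 for Olig2, 0.11 ± 0.67 for Pdgfra and 0.39 ± 0.45 for Cnp. Without both doubted arrays the value was −0.18 ± 0.52 for Olig1, −0.54 ± 0.37 for Olig2, −0.82 ± 0.64 for Pdgfra and −0.21 ± 0.48 for Cnp, so that 3 of the 4 genes changed direction. The direction for Pdgfra also turned without TGF-beta1 replicate 1 (−0.03 ± 0.79) and without FGF2 replicate 1 (−0.31 ± 0.72).

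TGF-beta1 against FGF2 without ethanol compares 4 arrays whose Fn1 goes with their labels. The 4 measured lineage genes had values below 0 in this comparison, and by limma 0 of 4 passed, where 0% of all genes did (542 at an unadjusted p under 0.05). The log2 fold changes were −0.48 ± 0.32 for Cnp, −0.51 ± 0.47 for Pdgfra, −0.25 ± 0.28 for Olig2 and −0.15 ± 0.30 for Olig1, at adjusted p between 0.982 and 0.992. Their median was −0.37, against 0.02 over all genes tested. Cnp was the 1 gene of 4 without overlap, where 36.2% of all genes had none. The 95% interval of Cnp, as a ratio of TGF-beta1 to FGF2, ran from 0.433 to 1.19. That of Pdgfra ran from 0.335 to 1.48, that of Olig1 from 0.567 to 1.44 and that of Olig2 from 0.54 to 1.3. With 2 arrays in a group, a 2-fold loss of Cnp or Pdgfra, or somewhat more, could not be told from no change. The intervals of Olig1 and Olig2 left out a 2-fold loss.

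With ethanol, TGF-beta1 against FGF2 gave 0 of 4 lineage genes past the threshold by limma, where 0% of all genes passed (288 at an unadjusted p under 0.05). Olig2 had the smallest unadjusted p, 0.0407, at a log2 fold change of −0.67 ± 0.28 and an adjusted p of 0.983. It was the 1 gene of 4 without overlap, where 31.8% of all genes had none. Pdgfra had −0.39 ± 0.47, Cnp −0.09 ± 0.32 and Olig1 0.06 ± 0.30. Both groups of this comparison hold a doubted array, and without both the values were −0.79 ± 0.30 for Olig2, −1.32 ± 0.52 for Pdgfra, −0.68 ± 0.39 for Cnp and −0.32 ± 0.42 for Olig1, each group then being 1 array whose spread is taken from the others. Olig1 thus changed direction, and so did Pdgfra without Ethanol and TGF-beta1 replicate 2 alone (0.30 ± 0.46). Of the 24 tests of these 4 genes in 6 comparisons, 0 passed and 2 had an unadjusted p under 0.05.

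**Figure D3:**
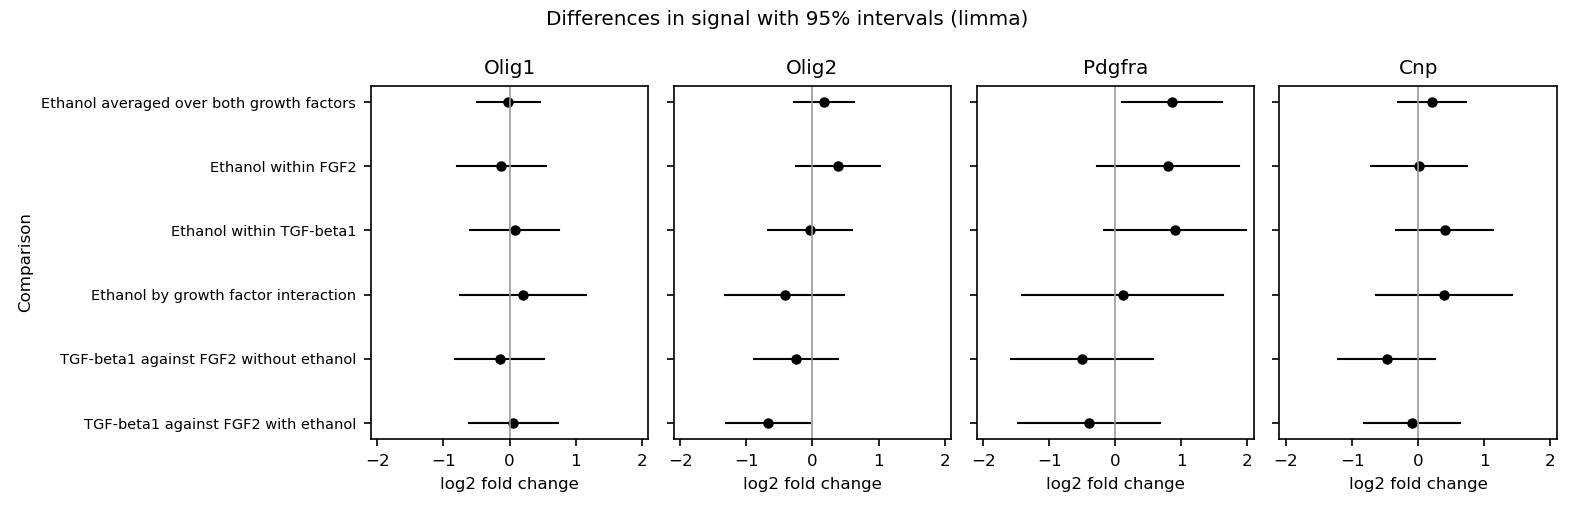
Log2 fold change (point) with its 95% interval (line) by limma for the 4 lineage genes above background in each of 6 comparisons. The intervals include 0 in all panels except ethanol averaged for Pdgfra and TGF-beta1 against FGF2 with ethanol for Olig2, neither of which passed after adjustment.

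The fit of single probe sets gave the same outcome. Of the 14 probe sets 6 passed its signal filter, and 0 of these were called in any of 6 comparisons, where 1.05% of 27022 probe sets were called for ethanol averaged, 0.437% for ethanol within TGF-beta1 and 0% in the other 4. The 3 Cnp probe sets had log2 fold changes of 0.24 ± 0.24, 0.21 ± 0.23 and 0.16 ± 0.24 for ethanol averaged and of −0.46 ± 0.33, −0.48 ± 0.32 and −0.43 ± 0.35 for TGF-beta1 against FGF2 without ethanol. The direction of each difference was shared by these 3 probe sets, which read 1 gene.

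The spread between replicates differed among the 4 genes. The pooled standard deviation within groups was 0.604 log2 units for Pdgfra, higher than in 87.8% of genes tested or equal to it, and 0.379 for Cnp, 0.33 for Olig1 and 0.305 for Olig2, where the median gene had 0.314. Pdgfra thus had the largest difference of the 4 genes for ethanol averaged and the largest replicate error. Pdgfra and Cnp (1437341_x_at) had a Pearson r of 0.828 over the 8 arrays, given as a description, and Olig1 and Pdgfra one of 0.113.

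The genes with the most similar profiles were sought among the other 10915 tested, by Pearson r of log2 values over the same 8 arrays, as a description. For Olig1 these were Pxmp2 (r = 0.982), Itga6 (0.971) and Senp3 (0.97), and the most opposed was Sdcbp (r = −0.944). For Olig2 they were Sppl3 (r = 0.974), Skida1 (0.963) and Rab3a (0.963), with Sh2b1 most opposed (r = −0.974). For Pdgfra they were Zfp579 (r = 0.959), Setd1b (0.957) and Plcb1 (0.954), with Tor1b most opposed (r = −0.933). For Cnp they were Srpk3 (r = 0.991), Ncald (0.973) and Gpr19 (0.969), with Gm15050 most opposed (r = −0.955). The 4 lineage genes had no gene in common in these sets.

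**Figure D4:**
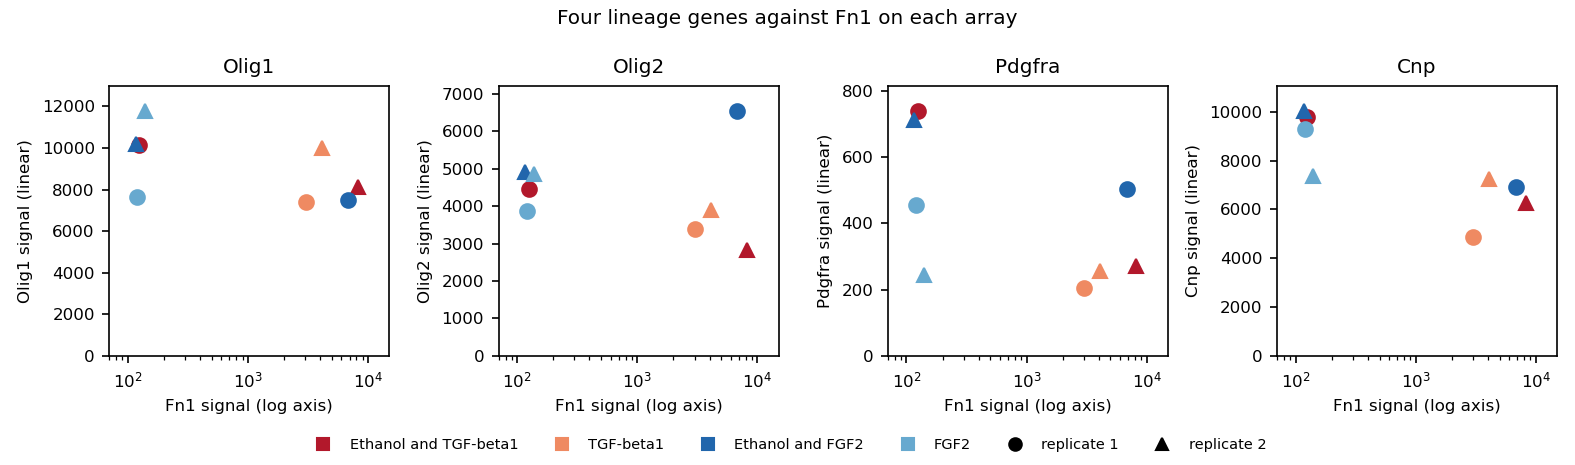
Signal (linear axis) of Olig1, Olig2, Pdgfra and Cnp against the Fn1 signal (log axis), 1 point per array. The arrays labelled Ethanol and TGF-beta1 replicate 1 (Fn1 124.2) and Ethanol and FGF2 replicate 1 (Fn1 6828) lie on the side of the other growth factor; the highest Cnp and Pdgfra signals are on arrays with low Fn1, and the highest Olig2 signal is on an array with high Fn1.

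Genes of later stages of the lineage were mostly near background. Of 18 myelin and differentiation genes measured, 10 were at or below the bound on all 8 arrays, among them Mbp (1.849 to 48.72), the myelin basic protein gene, Mog (1.385 to 70.48) and Mag (0.8798 to 8.172), which encode proteins of the mature sheath. The 3 that stood above it on all 8 were Qk (11611 to 23362), an RNA-binding protein also made by neural stem cells and astrocytes, Bcas1 (2075 to 4741), a gene of newly formed oligodendrocytes, and Gsn (263.7 to 709.4), an actin-severing protein. Bcas1 had log2 fold changes of −0.33 ± 0.18 for ethanol averaged and −0.35 ± 0.25 for TGF-beta1 against FGF2 without ethanol, not past the test (adjusted p = 0.553 and 0.982 by limma). Of the 5 genes of this list above the filter, 0 rose and 0 fell in any comparison, and their median was 0.04 for ethanol averaged.

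Genes that progenitors share with neural stem cells were present. Of 11 other progenitor genes measured, 6 were above the bound on all 8 arrays, including Ptprz1 (9111 to 21254), a receptor phosphatase, Vcan (5658 to 11782), the matrix proteoglycan versican, Bcan (2776 to 6897), the proteoglycan brevican, and Sox8 (1358 to 3061), a relative of Sox10. Gpr17, a receptor of committed progenitors, was under the bound on all 8 arrays (0.9944 to 50.82), as were Tnr and Matn4. Of the 8 tested, 0 rose and 0 fell in any comparison, with a median log2 fold change of 0.14 for ethanol averaged. Ptprz1 had 0.24 ± 0.28 and Vcan 0.03 ± 0.19.

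Of 17 other lineage transcription factors and regulators measured, 9 were above the bound throughout and 4 were under it throughout, among them Myrf (3.009 to 72.91), the factor that switches on myelin genes, and Nkx6-1 (5.413 to 55.79), a ventral patterning factor. None of the 13 tested passed in any comparison by limma (smallest adjusted p = 0.061). That value was for Sox9, a factor of neural stem cells, astrocytes and the first steps of glial specification. The Sox9 signal was 6111 and 7591 in Ethanol and TGF-beta1, 4342 and 3421 in TGF-beta1, 7736 and 7504 in Ethanol and FGF2, and 5107 and 3572 in FGF2. The 4 ethanol values lay above the 4 values without ethanol, as was the case in either direction for 7.43% of all genes tested. Its log2 fold change for ethanol averaged was 0.82 ± 0.18, and 0.89 ± 0.22 without both doubted arrays (adjusted p = 0.222). Chd7 (5202 to 9463), a chromatin remodeller that acts with Sox factors, had 0.16 ± 0.20 (adjusted p = 0.859).

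The ligands of the PDGF receptor were measured too. Pdgfa, the ligand of the Pdgfra receptor, had a signal of 2328 and 1473 in Ethanol and TGF-beta1, 1483 and 1325 in TGF-beta1, 2604 and 2648 in Ethanol and FGF2, and 2655 and 2788 in FGF2. In TGF-beta1 it was lower than in FGF2 by a log2 fold change of −0.95 ± 0.25, which was not past the test (unadjusted p = 0.00469, adjusted p = 0.98 by limma). Pdgfc, another ligand of that receptor, had 0.69 ± 0.29 in the same comparison (adjusted p = 0.98), with signals of 4067 and 2879 in TGF-beta1 and 2421 and 1856 in FGF2. Pdgfb and Pdgfd were under the bound on all 8 arrays, and Pdgfrb, the receptor of pericytes, on 7 of 8.

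Of the Hedgehog pathway, which induces Olig2 in the ventral neural tube, 6 of 11 measured genes were above the bound throughout. Shh, the ligand, and Gli1, a target gene of the pathway, were under it on all 8 arrays (1.781 to 80.58 and 2.114 to 62.8). The receptor gene Ptch1 had a signal of 13974 to 28029 and a log2 fold change of 0.19 ± 0.25 for ethanol averaged (adjusted p = 0.875 by limma). Gas1, a co-receptor, had a signal of 6219 and 6308 in Ethanol and TGF-beta1, 3067 and 2811 in TGF-beta1, 5437 and 7050 in Ethanol and FGF2, and 5916 and 6068 in FGF2. Its log2 fold change within TGF-beta1 was 1.09 ± 0.22 (adjusted p = 0.0559), the smallest adjusted p among the 36 genes tested of these 5 lists, 0 of which passed in any of 6 comparisons. The difference of Gas1 between TGF-beta1 and FGF2 without ethanol was −1.02 ± 0.22 (adjusted p = 0.98), and both Gas1 differences use the TGF-beta1 arrays.

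**Figure D5:**
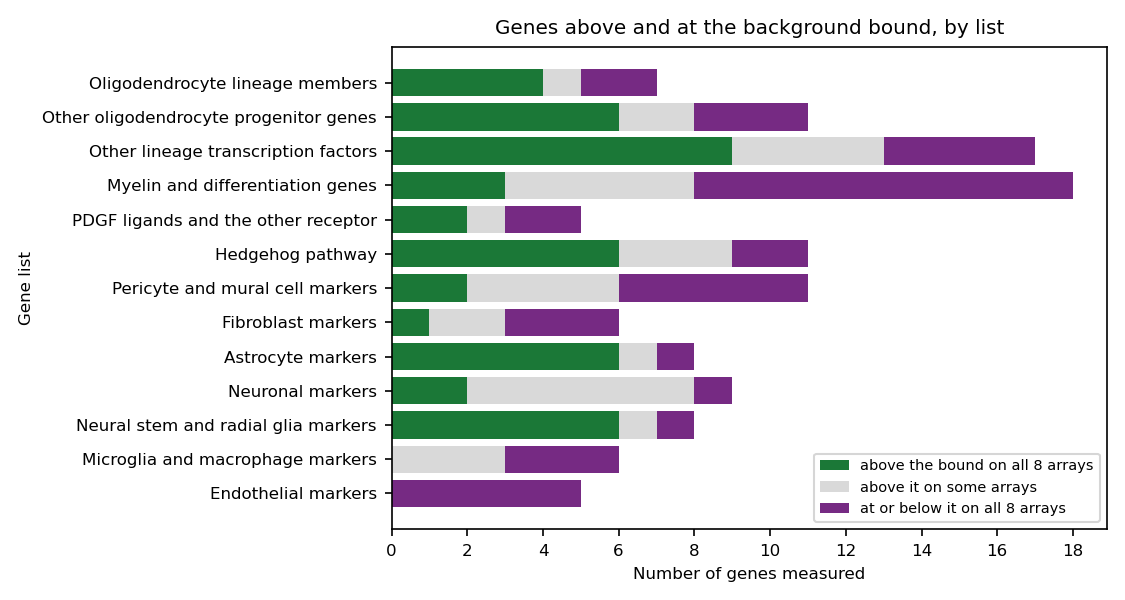
Number of genes of each list (1 probe set per gene) above the background bound on all 8 arrays (green), on some (grey) and on none (purple). Of myelin and differentiation genes 10 of 18 are at or below the bound on all 8 arrays, against 1 of 8 neural stem and radial glia markers.

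Markers of other cell types that carry Pdgfra or NG2 were mostly near background on some or all arrays. Of 11 pericyte and mural cell markers 5 were under the bound on all 8 arrays, including Rgs5, Anpep, Kcnj8 and Abcc9, and 2 were above it throughout, Notch3 (1656 to 4399) and Mcam (150.4 to 361.2). Acta2 and Tagln were each at or below the bound on 5 of 8 arrays. Well above it, they reached 751.4 and 448.8 on Ethanol and TGF-beta1 replicate 2, and 222.9 and 209.5 on Ethanol and FGF2 replicate 1. The summed signal of this list was 3122 and 4129 in Ethanol and TGF-beta1, 4916 and 4368 in TGF-beta1, 2591 and 2797 in Ethanol and FGF2, and 3248 and 2914 in FGF2. Notch3 alone gave 4399 of the highest sum and 1656 of the lowest. Of 6 fibroblast markers 3 were under the bound throughout and Col1a1 was above it throughout (127.8 to 1068). Dcn, the other fibroblast marker named, ran from 21.5 to 195.1. The summed fibroblast signal was 429.8 and 1156 in Ethanol and TGF-beta1, 1176 and 1085 in TGF-beta1, 850.7 and 531.2 in Ethanol and FGF2, and 424.9 and 550 in FGF2. Col1a1 alone gave 1068 of the highest sum, and 127.8 of the 429.8 on the array with the highest Pdgfra signal (Ethanol and TGF-beta1 replicate 1). The 3 fibroblast markers tested were Col1a1, Col3a1 and Dcn. Their median log2 fold change was 0.67 for ethanol averaged, 0.65 within FGF2 and 0.68 within TGF-beta1, beside 0.85, 0.80 and 0.91 for Pdgfra. Each of these medians was the value of Col3a1, a gene at or below the bound on 7 of 8 arrays (27.4 to 116.9). Dcn had 1.12 ± 0.50 for ethanol averaged, whereas Col1a1 had −0.67 ± 0.50. Dcn was lowest (21.5) on the array where Pdgfra was lowest, but almost as low (23.05) on FGF2 replicate 1, where Pdgfra was 456. The highest Dcn signal (195.1) was on Ethanol and TGF-beta1 replicate 2, where Pdgfra was 270.7. The part of these cells in the Pdgfra values was not tested. None of the 4 pericyte and 3 fibroblast markers tested passed in any comparison by limma.

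Of 8 astrocyte markers 6 were above the bound throughout, such as Slc1a3 (11445 to 31908) and Aldoc (10967 to 21732), and 0 of the 7 tested passed in any comparison, with a median log2 fold change of 0.03 for ethanol averaged. Of 9 neuronal markers 2 were, Map2 (5331 to 12179) and Dcx (56.53 to 1013). In 1 comparison, ethanol within TGF-beta1, 1 of the 7 tested rose (median log2 fold change 0.74), where 1.19% of all genes tested passed in either direction. Dcx (doublecortin, of young neurons) rose within TGF-beta1 (log2 fold change 2.70 ± 0.52, adjusted p = 0.0488 by limma). With replicate number added to the model, 0 genes passed in this comparison, so neither did Dcx. Its signals were 1013 and 413.1 in Ethanol and TGF-beta1, and 56.53 and 109.3 in TGF-beta1. Without both doubted arrays its value was 2.08 ± 0.59 and did not pass (adjusted p = 0.378). The summed neuronal signal was 14123 and 9351 in Ethanol and TGF-beta1, 5672 and 7312 in TGF-beta1, 9293 and 12025 in Ethanol and FGF2, and 8390 and 11909 in FGF2. Map2 alone gave 12179 of the highest sum and 5331 of the lowest. The sum was highest on the array with the highest Pdgfra signal and lowest on the array with the lowest, and its part in the Pdgfra values was not tested. Because whole cultures were measured, fewer cells of a type and less RNA per cell cannot be told apart.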

How the data were processed

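RNA of 8 neural stem cell samples was hybridized to 1-colour Affymetrix mouse arrays. The authors deposited 1 linear signal intensity per probe set, made with MAS5 and GCOS per the submitters' processing notes; versions are not given in the sources used here. The 2% trimmed mean of every array was 500, and no detection calls were used. Gene symbols came from the platform annotation: of 45101 probe sets, 34945 had 1 symbol, 932 several and 9160 none, and 64 were controls. For each gene the probe set with the highest mean log2 value was used. Values were log2(signal + 23.66), where 23.66 is the 25th percentile of all signals, a constant that understates changes of low genes.

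The 10916 genes whose mean log2 value reached the 40th percentile were fitted with limma 3.58.1 in R 4.3.3 (4 group means, eBayes with trend, Benjamini-Hochberg, adjusted p of 0.05). In simulated data of 10916 genes for ethanol averaged, 87 of 100 genes changed by 2 log2 units and 98 of 100 changed by 3 were called, with 7 unchanged genes called. Smaller changes, such as those of the lineage genes tested, were not simulated, so their recovery is not known. Gene positions came from RefSeq (GRCm38.p6). Alternatives covered the added constant, the filter, quantile normalization, the mean of probe sets, a replicate block, eBayes without trend, an additive model and arrays left out.

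The lineage genes, the other gene lists and the tests were chosen with earlier results of these data known. Named from each list were genes past the threshold and the 2 with the highest mean signal. Further genes are named for their role or their signal, after their values were seen. Some genes of the lists are not reported here.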

Additional observations from a re-analysis of the deposited data

Results flagged for a closer look

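Probe set 1421916_at of Pdgfra had opposite ethanol differences in the 2 growth factors, with a log2 interaction of 1.31 (the difference in TGF-beta1 minus that in FGF2). Its signal was 29.64 and 25.42 in Ethanol and TGF-beta1, 3.601 and 20.56 in TGF-beta1, 4.222 and 10.99 in Ethanol and FGF2, and 24.81 and 32.68 in FGF2. All 8 values lay under the background bound, and the probe set did not pass the signal filter. Fitted without the filter by limma, the interaction had an SE of 0.59, an unadjusted p of 0.0483 and an adjusted p of 0.946. The detected probe set of the gene, 1421917_at, had an interaction of 0.11 ± 0.67.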

How the results depend on the processing

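The count of lineage genes past the threshold was 0 in each of 6 comparisons, and 0 under every alternative run. It was 0 with the replicate block, and 0 to 0 over arrays left out 1 at a time. The labels do not say if replicate numbers pair arrays, and deviations of same-numbered arrays did not go together in all groups (r = 0.466 between the groups without ethanol, −0.438 between those with it). The count of lineage genes with every probe set near background on all 8 arrays was 2, and 0 when the bound was the 40th percentile of all probe sets. The probe set used for Cspg4 (1450944_at) stayed at or below that bound too on all 8. The counts over all genes depended more on the settings. For ethanol averaged, 217 genes passed, 119 with a filter at the 60th percentile, 128 without the first replicate of Ethanol and TGF-beta1, 101 without TGF-beta1 replicate 1, and 0 by limma when both doubted arrays were left out (1139 had an unadjusted p under 0.05). For ethanol within TGF-beta1, 130 passed, 88 with a constant of 1, 85 with the mean of probe sets, 78 without trend, 75 with a filter at the 60th percentile, 65 without Ethanol and TGF-beta1 replicate 2, and 0 with the replicate block, without both doubted arrays, without Ethanol and TGF-beta1 replicate 1 or without one or the other TGF-beta1 array. For ethanol within FGF2, 0 passed, and 29 without a filter or with quantile normalization, 3 with a filter at the 60th percentile, 77 without FGF2 replicate 2, and 14 and 15 without replicate 1 and without replicate 2 of Ethanol and TGF-beta1. Apart from the changes that follow from fewer arrays or genes, the cause was not tested. Among the probe sets used for the 4 tested genes, that of Pdgfra came closest to the bound, at 1.52 times.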
